A study of Mus musculus with 10 samples.

Results

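The subject is the set of nuclear genes for the protein complexes of the mitochondrial respiratory chain and the ATP synthase, described in mouse hippocampus with and without the receptor for thyroid-stimulating hormone. Members were taken by gene symbol from the deposited expression table: protein-coding genes named as subunits of NADH dehydrogenase (Nduf), succinate dehydrogenase (Sdha to Sdhd), the cytochrome bc1 complex (Uqcr and Cyc1), cytochrome c oxidase (Cox4 to Cox8) and the ATP synthase (Atp5), with a mean of at least 0.5 FPKM over the 10 libraries. FPKM is the number of fragments counted on a gene, scaled for gene length and library size. The symbols matched 94 genes and 93 passed the level, of 52636 genes in the table. Cox7b2 lay just inside at a mean of 0.589 FPKM, and the 1 gene outside was Cox8c, a testis form, which was listed at 0. By function the 93 were 36 subunits of complex I (7 core and 29 accessory), 4 of complex II, 9 of complex III, 18 of complex IV and 15 of complex V, with 8 assembly factors of complex I (Ndufaf1 to Ndufaf8) and 3 others that carry such symbols without being structural subunits of 1 complex (Atp5s, Atp5sl and Cox7a2l).

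The hippocampus came from C57BL/6 mice aged 3 months. The labels give 5 biological replicates homozygous for the Tshr null allele (Tshr-/-) and 5 of wild type, all of the same strain. They do not say if animals were pooled or given thyroid hormone, or in which cells the allele is absent, so Tshr-/- is read here as a germline loss as its name says. TSHR is the receptor through which pituitary thyrotropin drives the thyroid gland, and the series asks about learning and memory in its absence.

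Complex I passes electrons from NADH to ubiquinone, complex II from succinate to ubiquinone, complex III from ubiquinol to cytochrome c, and complex IV from cytochrome c to oxygen. Complexes I, III and IV pump protons across the inner membrane, and complex V uses the gradient to make ATP. A few subunits of complexes I, III, IV and V are encoded in mitochondrial DNA, and the rest, together with the whole of complex II, are nuclear genes whose products are imported. Neurons depend on this pathway for ion pumping and synaptic transmission. Thyroid hormone is known as a regulator of mitochondrial gene expression in several tissues.

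Libraries held 23899650 to 33529811 reads counted on genes. Tshr itself was hardly detected in either genotype, with 0 FPKM in Tshr-/- libraries 1, 2 and 3 and 0.0311 and 0.012 in libraries 4 and 5, against 0.0489, 0.0594, 0.0507, 0.0134 and 0.0134 in the 5 wild-type libraries, so it gives little check of the labels. The tissue label was checked on 9 markers of hippocampal pyramidal and granule neurons, which were all expressed, among them Camk2a at 425 to 771 FPKM and the granule cell gene C1ql2 at 29.9 to 99.2. All 9 had a lower mean log2 value in Tshr-/-, whereas all 9 markers of thalamus and habenula had a higher one. The summed FPKM of the thalamic list was 111, 200, 34.1, 52.8 and 28.2 in Tshr-/- libraries 1 to 5 and 23.5, 67.4, 24.4, 18.8 and 92.4 in wild-type libraries 1 to 5. Tshr-/- library 4 also held choroid plexus transcripts (Ttr, 2189 FPKM). In bulk tissue fewer cells of a type and less RNA per cell cannot be told apart.

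Several members have near-identical copies elsewhere in the genome. For 2 of them, Ndufa12 and Ndufs5, adding the reads of the copy changed the range over libraries most, so their sequences are shown first. Both are accessory subunits of complex I. The member is Ndufa12 at chr10:94198955-94221443 (mm10) and its copy is the processed pseudogene Gm15920 at chr5:130188395-130188796. Over 402 aligned bases they were 99.5% identical and differed at A147G and T426C in the coding sequence. The second pair is Ndufs5 at chr4:123712710-123718202 and the processed pseudogene BC002163 at chr16:42955631-42955949, which were 99.4% identical over 319 bases and differed at T81C and A105G. Positions count from 1 at the first base of the member's start codon, the member's base comes first, and the capitals mark the differing base in these stretches of the member's coding strand (GENCODE vM21, GRCm38).
Ndufa12 (122 to 172): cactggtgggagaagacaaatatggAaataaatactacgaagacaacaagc
Gm15920 (122 to 172): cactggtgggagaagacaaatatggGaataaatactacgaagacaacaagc
Ndufa12 (401 to 447): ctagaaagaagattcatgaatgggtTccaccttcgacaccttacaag
Gm15920 (401 to 447): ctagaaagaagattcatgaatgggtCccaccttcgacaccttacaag
Ndufs5 (56 to 130): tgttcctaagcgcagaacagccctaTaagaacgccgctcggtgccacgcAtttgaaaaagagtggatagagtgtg
BC002163 (56 to 130): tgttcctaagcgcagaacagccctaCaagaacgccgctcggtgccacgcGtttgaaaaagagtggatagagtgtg

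Members were strongly expressed. The median member had 51.8 FPKM against 5.05 for the median of the 15471 genes tested, and 80 of the 93 members exceeded 10 FPKM. The highest were subunits of cytochrome c oxidase: Cox6a1, a regulatory subunit of complex IV, at a mean of 853 FPKM, and Cox8a at 580.1. The catalytic pair of complex V, Atp5a1 (288 FPKM) and Atp5b (261 FPKM), the alpha and beta subunits of the F1 head, lay lower. Within complex II the levels ran from 17.1 FPKM for the membrane anchor Sdhc to 101 for the flavoprotein Sdha. The lowest complex I core subunit was Ndufs1, which carries iron-sulfur clusters, at 12.8 FPKM. Assembly factors, which help to build complex I and leave it, had 4.77 to 19.5 FPKM. The members together took 1.09% ± 0.0464 of the counted reads in Tshr-/- and 1.07% ± 0.0539 in wild type (SD, n = 5 each). Their summed FPKM ran the other way, at 7059 ± 202 in Tshr-/- and 7324 ± 352 in wild type (SD, n = 5 each).

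**Figure D1:**
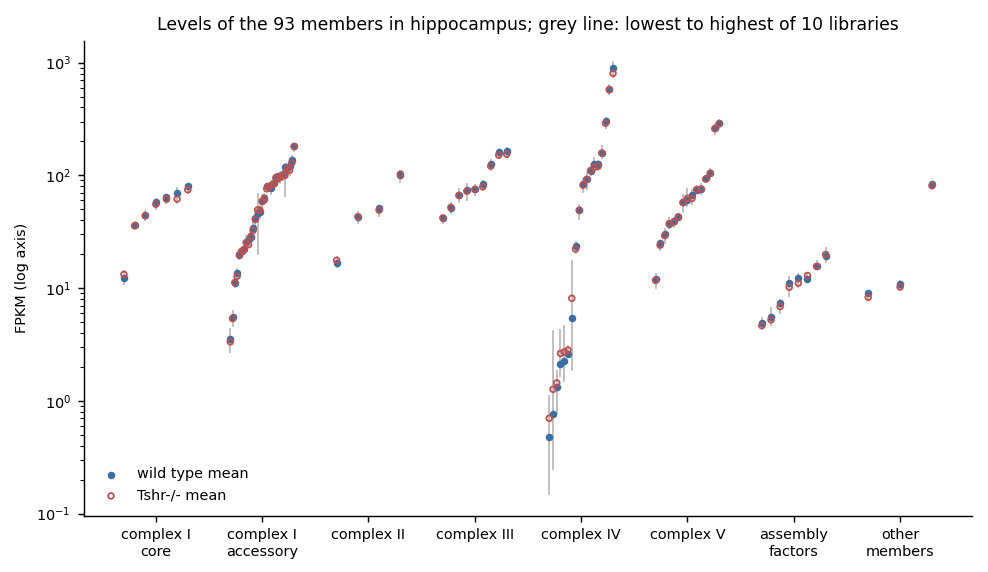
Mean FPKM (log axis) of each of the 93 members, grouped by complex, in wild type (filled) and Tshr-/- (open); the grey line runs from the lowest to the highest of the 10 libraries. The 2 means of nearly every member lie on top of each other, and long grey lines occur among the low complex IV genes and at Ndufa12.

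FPKM divides by the length of all annotated exons, which lowers the level of a gene with long alternative exons. Atp5l, a membrane subunit of the ATP synthase, was given a length of 6443 bases although its longest coding transcript in GENCODE vM21 has 544, and it was listed at 11.8 FPKM. Ndufb7 was the other member whose length was at least 5 times that of its coding transcript. Levels of different genes in this section carry this limit, whereas differences between genotypes do not, since the length is the same in every library.

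No member differed between the genotypes past the threshold. In limma, fitted on log2(FPKM + 0.1) over all 15471 tested genes with Benjamini-Hochberg adjustment, 0 of 93 members had an adjusted p below 0.05 and the smallest was 0.333, for Ndufb8. Over all tested genes 2 were called, both lower in Tshr-/-, which is 0.0129% called. At an unadjusted p below 0.05 the count was 5 members, all lower in Tshr-/- (Ndufb8, Ndufs7, Atp5s, Ndufaf5 and Cox6a1), or 5.38% of members against 13.0% of all tested genes in either direction and 8.38% in the lower direction (4.65% in the higher direction). By voom on reads rebuilt from the FPKM, 0 members were called and 1 had an unadjusted p below 0.05, higher in Tshr-/-. Over all 15471 tested genes voom called 9, and 2241 had an unadjusted p below 0.05. The genotypes overlapped in all 93 members, against 2.68% of all tested genes whose 5 Tshr-/- libraries lay wholly on one side of the 5 wild-type libraries (0.911% above and 1.76% below).

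The data were precise enough to bound most members. For 85 of 93 members, or 91.4%, the whole 95% interval of the difference lay within 1.3-fold in either direction, compared with 56.8% of all tested genes. The median half-width of the interval was 0.15 on the log2 scale, against 0.22 for all tested genes. The comparison is not matched for level, since the median member had 51.8 FPKM against 5.05. In lists of other genes given below, the share within 1.3-fold ran from 53.8% (subunits encoded in mitochondrial DNA) to 100% (mitochondrial import). It was 98.7% for mitochondrial and 87.8% for cytosolic ribosomal proteins. A high share is thus not particular to the members. All 9 members of complex III, all 15 of complex V, all 4 of complex II and all 7 core subunits of complex I were inside this bound. The 8 outside were Ndufs5 and Ndufa12 and the complex IV genes Cox4i2, Cox6a2, Cox6b2, Cox7a1, Cox7b2 and Cox8b. These intervals are per gene and are not adjusted for the number of genes.

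**Figure D2:**
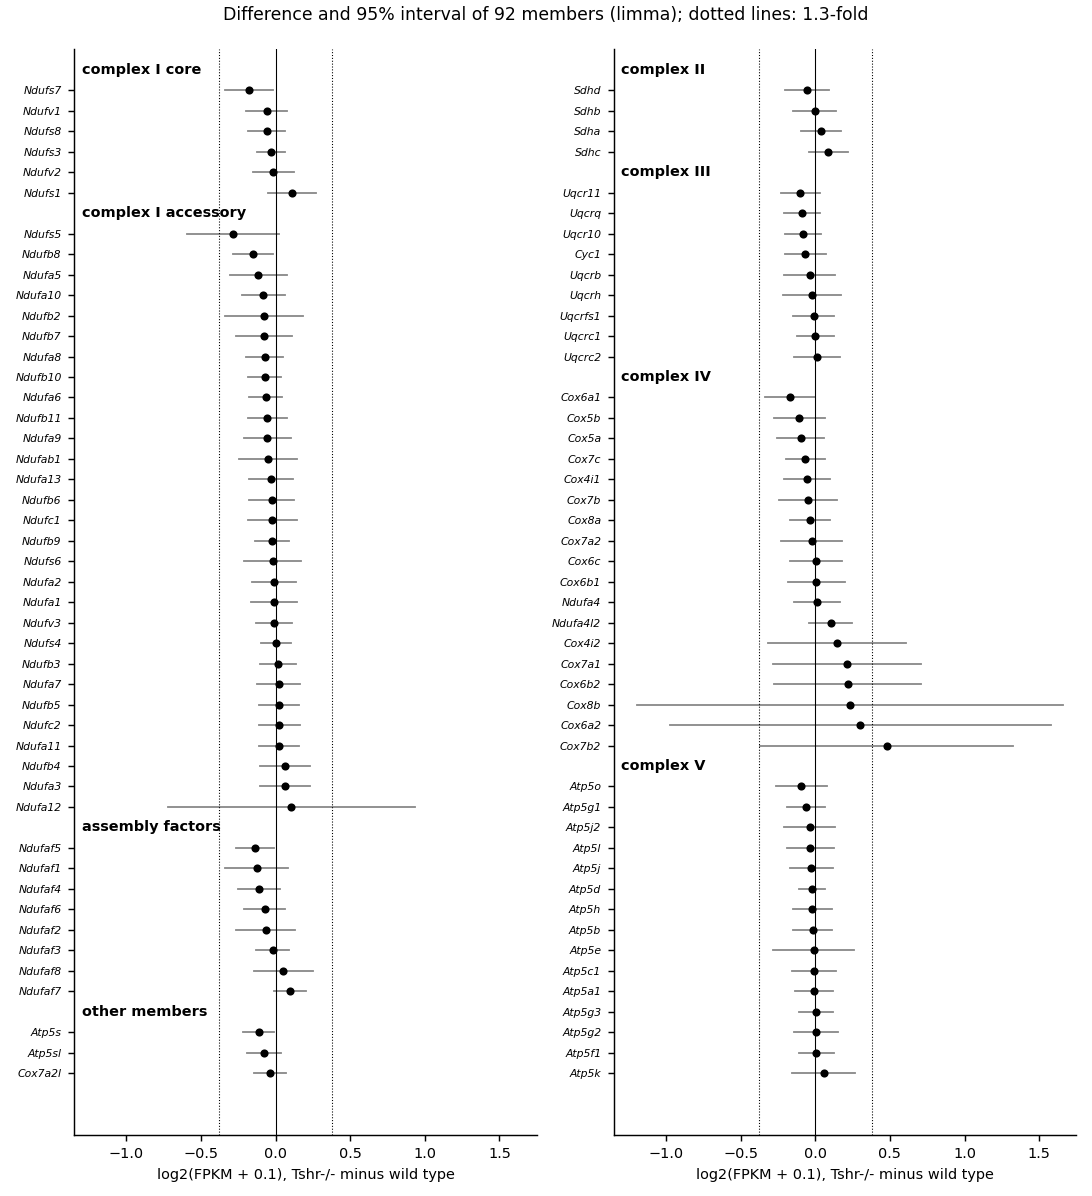
Difference of each of 92 members (Tshr-/- minus wild type, log2(FPKM + 0.1), point) with its 95% interval (line), by functional group; dotted lines mark 1.3-fold. The 8 intervals that cross a dotted line belong to Ndufs5, Ndufa12 and 6 complex IV genes of low level.

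By complex, the median log2 difference was -0.03 for complex I (9 higher, 27 lower), 0.02 for complex II (2 and 2), -0.04 for complex III (1 and 8), 0.01 for complex IV (10 and 8) and -0.02 for complex V (4 and 11). Over the 93 members it was -0.02 (28 higher and 65 lower), and over all tested genes -0.01, with 53.3% lower. The sign of the member median depended on the scaling. After quantile normalization the member median was 0.06 with 71 members higher and 22 lower, where the median of all genes was -0.003. By voom the member median was 0.05 with 69 higher, where the median of all genes was 0.06. Members thus lay above all genes after quantile normalization and below them by voom. The FPKM were not scaled to the counted reads that voom used. Without Tshr-/- library 3 the split was 49 lower and 44 higher. The medians of complexes I, III and V were above 0 after quantile normalization and by voom, and the medians of complexes II and IV fell below 0 (-0.03 each) without wild-type library 4, so no complex kept 1 sign throughout. Complex I summed to 2153 ± 94.7 FPKM in Tshr-/- and 2226 ± 119 in wild type, complex II to 212 ± 5.7 and 211 ± 14.5, complex III to 812 ± 25.8 and 846 ± 40.8, complex IV to 2437 ± 50.6 and 2578 ± 113, and complex V to 1260 ± 41.2 and 1273 ± 65.5 (SD, n = 5 each).

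In complex I, the core subunit Ndufs7, which passes electrons from the last iron-sulfur cluster to ubiquinone, had 56.8, 58.9, 62.9, 60.2 and 69.2 FPKM in the Tshr-/- libraries and 77.8, 67.7, 72.7, 62.1 and 68.5 in the wild-type libraries. Tshr-/- library 5 stood above 3 of the wild-type libraries, so the groups overlapped. The log2 difference was -0.18 (SE 0.07; limma adjusted p = 0.34). Ndufs7 lies at chr10:80249121-80256794 (mm10). Ndufb8, an accessory subunit of the membrane arm, had 23.4, 25.1, 25.2, 23.2 and 24.4 FPKM in Tshr-/- against 28.1, 26.6, 29.5, 23.7 and 27.1 in wild type. Only wild-type library 4 fell within the Tshr-/- range. Its log2 difference was -0.15 (SE 0.06; limma adjusted p = 0.333).

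The core subunits Ndufv1 and Ndufs1 lay closer together. Ndufv1, which binds NADH and FMN, had a mean of 55.4 ± 2.81 FPKM in Tshr-/- and 57.9 ± 4.21 in wild type (SD, n = 5 each). Ndufs1 had the opposite sign, at 13.2 ± 0.974 and 12.3 ± 1.1 FPKM with a log2 difference of 0.11. Their limma adjusted p-values were 0.699 and 0.55. The highest accessory subunit, Ndufb9, had 189, 182, 176, 178 and 177 FPKM in Tshr-/- and 187, 191, 185, 166 and 188 in wild type. Its values stayed within 1.15-fold over the 10 libraries, with wild-type library 4 as the lowest. The lowest accessory subunit was Ndufb2, at 2.72 to 4.3 FPKM.

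Ndufs5 had the lowest log2 difference of the 93 members, -0.29 (SE 0.14; limma adjusted p = 0.413). It had 66.0, 116, 99.4, 101 and 116 FPKM in the Tshr-/- libraries, against 125, 125, 121, 106 and 120.3 in wild type. Tshr-/- library 1 stood apart, below every other library. In the same library the copy BC002163 took 36.2 RPM (reads scaled to a library of 1000000 counted reads), against 0.924 to 2.11 in the other 9. With the reads of the copy added, Ndufs5 came to 94.98, 107, 88.3, 92.3 and 101 RPM in Tshr-/- and 103, 109.9, 101, 91.4 and 104 in wild type. Tshr-/- library 1 then lay in the middle of its group, and the ratio of the highest to the lowest library fell from 1.84 to 1.24. The log2 difference became -0.15 with the copy and -0.15 without Tshr-/- library 1.

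Ndufa12 varied over libraries more than any other complex I member, by 3.41-fold in FPKM with a coefficient of variation of 38.0% against a median of 7.05% for members. It took 69.1, 71.7, 26.9, 86.9 and 85.0 RPM in Tshr-/- and 86.0, 36.7, 31.9, 59.9 and 88.9 in wild type. Tshr-/- library 3 and wild-type libraries 2 and 3 were low. Its copy Gm15920 was high in those 3 libraries, at 43.7, 41.8 and 49.9 RPM, and between 20.2 and 30.0 in the other 7. The copy held 61.9% of the summed reads in Tshr-/- library 3 and 18.8% in Tshr-/- library 4. The sum ran from 70.6 to 112 RPM, a 1.58-fold range. The log2 difference of Ndufa12 moved from 0.11 (SE 0.38) to -0.01 when the reads of the copy were added. Which of the 2 genes these reads came from was not tested. Ndufa12 was outside the rule for named genes and was chosen after its values were seen.

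**Figure D3:**
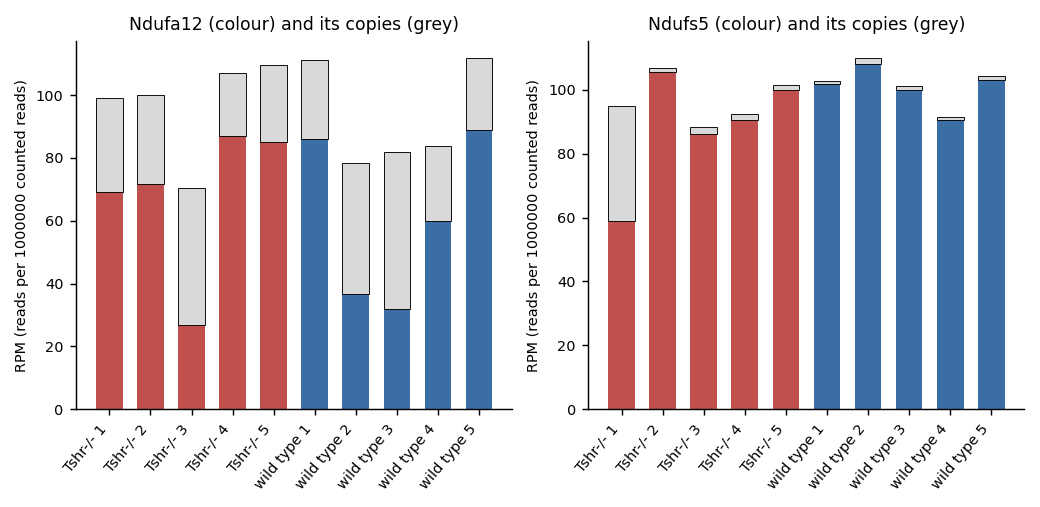
RPM (reads per 1000000 counted reads) of Ndufa12 (left) and Ndufs5 (right) in each library, coloured by genotype, with the reads of the near-identical copy stacked in grey. Ndufa12 is short and its copy tall in Tshr-/- library 3 and wild-type libraries 2 and 3, and the copy of Ndufs5 reaches 36.2 in Tshr-/- library 1 alone.

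In all, 23 members had at least 1 copy with at least 95% identity over 150 bases or more, 43 copies together, of which 26 had 0.5 FPKM or more. Copies held over 10% of the summed reads for 4 members: Ndufa12 (32.6%), Atp5l (22.9%), Ndufab1 (19.9%), the acyl carrier protein, and Atp5g1 (17.0%), 1 of the 3 genes for subunit c of the ATP synthase rotor. For Atp5l, Gm10221 at chr5:24581554-24581862 matched over 309 bases with 0 mismatches and took 6093 reads over the 10 libraries against 21156 for Atp5l. Adding copies narrowed the range over libraries for Ndufa12 and Ndufs5 far more than for Atp5l, which went from 1.32-fold to 1.28-fold. The copies of Cox7c also differed between libraries. They took 14.9 RPM in Tshr-/- library 1 and 13.6 and 12.8 in wild-type libraries 1 and 3, against 6.02 to 7.34 in the rest. Adding them took the range of Cox7c from 1.21-fold to 1.25-fold. With the reads of copies added, 0 members were called and 87 members had an interval within 1.3-fold.

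Complex II, the only complex wholly encoded in the nucleus, was level. Sdha, which oxidizes succinate, had 103, 108, 101, 95.4 and 105 FPKM in Tshr-/- and 102, 106, 98.5, 87.6 and 105 in wild type. The log2 difference was 0.04 (SE 0.06; limma adjusted p = 0.832) and the groups overlapped throughout. The iron-sulfur subunit Sdhb had 42.9 ± 2.34 and 43.1 ± 3.59 FPKM in Tshr-/- and wild type. The anchors Sdhc (17.6 ± 1.09 and 16.6 ± 1.0) and Sdhd (49.1 ± 3.57 and 51.1 ± 3.38) differed in opposite directions by less than 2 SE (SD, n = 5 each).

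In complex III the core protein Uqcrc1 was the most alike between genotypes, at 41.9 ± 2.38 FPKM in Tshr-/- and 41.9 ± 2.23 in wild type (SD, n = 5 each). Each genotype had 1 low library, 37.8 in Tshr-/- library 4 and 37.9 in wild-type library 4, while the other 8 lay between 42.0 and 44.0. The Rieske iron-sulfur protein Uqcrfs1 had 75.0 ± 5.16 and 75.5 ± 4.48 FPKM, and cytochrome c1, Cyc1, 121 ± 4.82 and 127 ± 10.1. The small subunits Uqcr10, Uqcr11 and Uqcrq had log2 differences of -0.08, -0.10 and -0.09 with limma adjusted p-values of 0.539, 0.501 and 0.525. Of the 9 members 8 had a value below 0, Uqcrc1 at -0.00024, and none had an unadjusted p below 0.05.

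Complex IV held both the highest member and the most variable ones. Cox6a1 (chr5:115345642-115348981) had 763, 753, 851, 789.9 and 858 FPKM in Tshr-/- and 981, 850.0, 1006, 831 and 850.3 in wild type. Wild-type libraries 1 and 3 stood highest, and the other 3 wild-type libraries fell within the Tshr-/- range. The log2 difference was -0.17 (SE 0.08; limma adjusted p = 0.382). Cox8a had 573 ± 30.8 and 587 ± 31.8 FPKM, Cox4i1, the ubiquitous form of the largest nuclear subunit, 289.9 ± 22.1 and 302 ± 21.2, and Cox5a 22.2 ± 1.89 and 23.7 ± 1.81 (SD, n = 5 each). Ndufa4, first assigned to complex I and now counted with complex IV, had 110.2 ± 7.31 and 109.7 ± 9.65.

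Several complex IV subunits come as pairs in which one gene is expressed in most tissues and the other mainly in heart and muscle, lung or testis. Here the less expressed gene made up a small share of the summed FPKM of its pair in every library. Cox4i2, the form known from lung, made up 0.494% ± 0.0815 in Tshr-/- and 0.439% ± 0.132 in wild type. Cox6b2, known from testis, made up 1.65% ± 0.679 and 1.35% ± 0.237. Cox7a1, a heart and muscle form, made up 2.82% ± 0.907 and 2.33% ± 0.298 of its sum with Cox7a2. Ndufa4l2, known as induced by hypoxia, made up 2.5% ± 0.231 and 2.34% ± 0.137 of its sum with Ndufa4 (SD, n = 5 each).

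Cox6a2 and Cox8b varied most. Cox6a2, a heart and muscle form also known from some interneurons, had 11.2, 17.5, 2.96, 1.87 and 7.06 FPKM in Tshr-/- and 3.7, 5.64, 5.64, 2.37 and 9.63 in wild type. The 3 highest values were those of Tshr-/- libraries 2 and 1 and wild-type library 5, which also had the 3 highest summed levels of thalamic markers. The log2 difference was 0.30 (SE 0.58) over the 10 libraries and -0.11 over the 6 libraries with the lowest thalamic sums. Cox8b had 4.15 FPKM in Tshr-/- library 4 and 0.248 to 1.34 in the other 9, from 3 to 40 reads per library. Tshr-/- library 4 is the one with 2189 FPKM of Ttr. The heart and muscle genes Myl2 and Ckm were at or near 0 (up to 0.38 and 0.11 FPKM). The part of these other cells in the values of Cox6a2 and Cox8b was not tested.

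**Figure D4:**
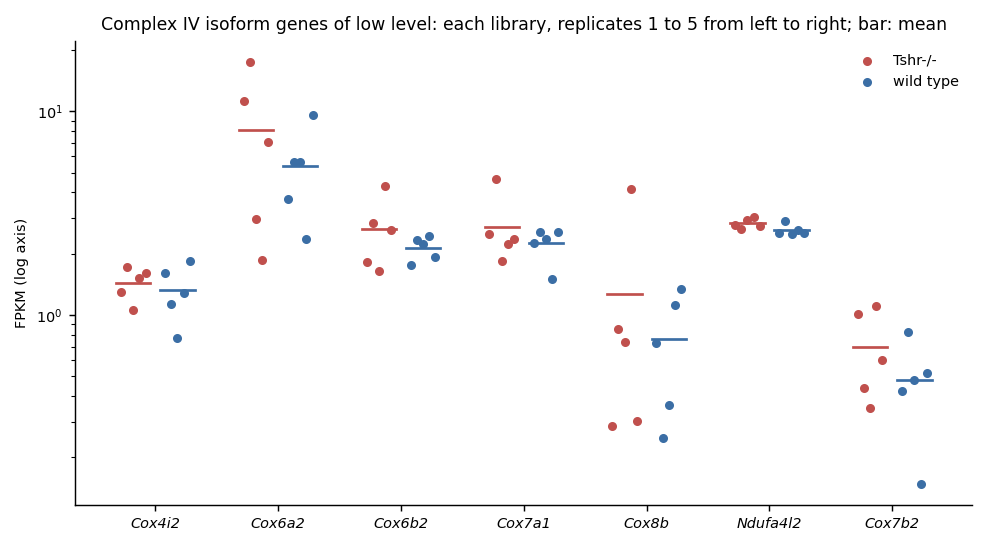
FPKM (log axis) of 7 complex IV genes of low level in each library of Tshr-/- and wild type; the horizontal bar is the mean of 5. Cox6a2 and Cox8b spread most, with Cox6a2 at 17.5 in Tshr-/- library 2 and Cox8b at 4.15 in Tshr-/- library 4, and the genotypes overlap for all 7.

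In complex V the catalytic beta subunit Atp5b had 265, 271, 255, 242 and 265 FPKM in Tshr-/- and 267, 267, 263, 235 and 284 in wild type, and they differed by -0.02 in log2 (SE 0.06; limma adjusted p = 0.924). Library 4 was the lowest of each genotype. Atp5a1 had 287 ± 13.3 and 289 ± 17.6 FPKM. Atp5d, the delta subunit of the central stalk, was the steadiest of the 93 members, at 92.5 ± 2.19 and 94.1 ± 2.32 FPKM with a coefficient of variation of 2.45% over all 10 libraries (SD, n = 5 each). Subunit c, which forms the proton-driven ring, is made from 3 genes that encode the same mature protein. Of their summed FPKM, Atp5g1 gave 17.7% ± 1.16 in Tshr-/- and 18.3% ± 0.5 in wild type, Atp5g2 27.4% ± 2.4 and 27.2% ± 1.8, and Atp5g3 54.9% ± 2.12 and 54.5% ± 1.45. The order of the genes depends on the lengths used: in reads over the 10 libraries Atp5g1 had 33349 and Atp5g2 17258. Reads placed on the copy of Atp5g1, 17.0% of their sum, are not in its share.

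Among the assembly factors, Ndufaf5, which hydroxylates an arginine of Ndufs7, had 11.2, 11.9, 10.96, 10.2 and 10.98 FPKM in Tshr-/- and 11.95, 12.6, 11.8, 11.3 and 13.2 in wild type. Tshr-/- library 2 reached into the wild-type range, and the log2 difference was -0.14 (SE 0.06; limma adjusted p = 0.347). Ndufaf7, an arginine methyltransferase, had the opposite sign, at 12.9 ± 0.639 and 12.1 ± 0.476 FPKM (limma adjusted p = 0.44). The early factors Ndufaf1 (10.2 ± 1.27 and 11.1 ± 1.11) and Ndufaf4 (6.86 ± 0.539 and 7.41 ± 0.314) overlapped between genotypes (SD, n = 5 each). Atp5s, a coupling factor outside the rule for named genes and chosen after its values were seen, had 8.28 ± 0.395 and 8.96 ± 0.204 FPKM and differed by -0.11 in log2 (SE 0.05; limma adjusted p = 0.345).

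Differences among libraries of 1 genotype were larger than those between genotypes. The mean log2 deviation of the 93 members from their 10-library mean was 0.03, 0.06, -0.12, -0.003 and -0.008 in Tshr-/- libraries 1 to 5 and 0.04, 0.06, -0.01, -0.12 and 0.08 in wild-type libraries 1 to 5. Tshr-/- library 3 and wild-type library 4 were thus the low libraries, 1 in each genotype. Of the 93 members, 57 had their lowest value in 1 of these 2 libraries and 0 had their highest there. The 2 libraries were picked on these same members, so this count and those by complex describe the choice and add no support to it. The same count over all tested genes was not made. In wild-type library 4, 84 of 93 members lay below their mean, and in wild-type library 2, 82 lay above it. The 2 low libraries shared this in complexes I, III, IV and V, where 26 of 36, 7 of 9, 10 of 18 and 9 of 15 members had their lowest value in 1 of them, whereas in complex II only the wild-type library was low.

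The same 2 libraries had the lowest summed FPKM of 6 oligodendrocyte markers, 570.4 and 607, against 730.2 to 1123 in the other 8. Their thalamic sums were 34.1 and 18.8. The 4 libraries with the highest thalamic sums (Tshr-/- 1 and 2, wild type 2 and 5) gave the members 1.11% to 1.15% of counted reads, and the other 6 gave 0.987% to 1.08%. The part of these cell types in the member values was not tested. Over the 6 libraries with the lowest thalamic sums 0 members were called, the member median was -0.03 and 76 members had an interval within 1.3-fold. In complex IV the mean deviation of 0.19 in Tshr-/- library 2 came with the low genes: it was 0.46 over the 7 genes up to 10 FPKM and 0.01 over the 11 above.

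**Figure D5:**
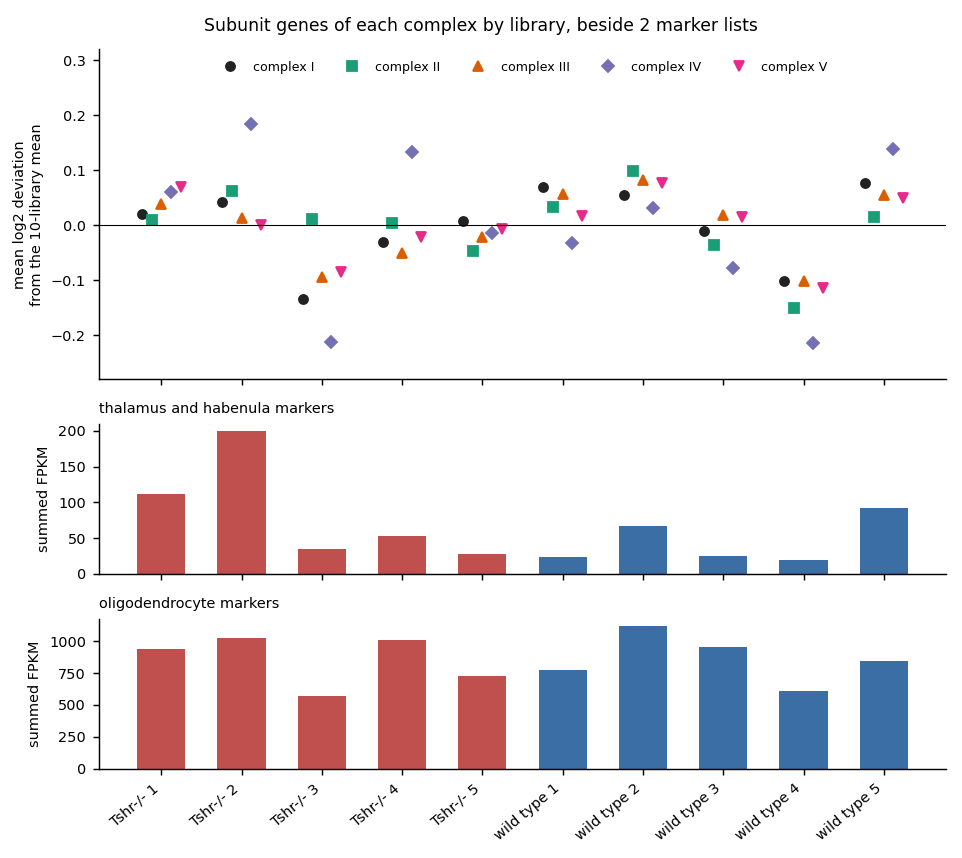
Top, mean log2 deviation of the subunit genes of each complex from the 10-library mean, by library; middle and bottom, summed FPKM of 9 thalamus and habenula markers and of 6 oligodendrocyte markers. Tshr-/- library 3 and wild-type library 4 are low in complexes I, III, IV and V and have the 2 lowest oligodendrocyte sums.

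No gene was called by limma in 7 lists of genes around the chain, which were chosen with earlier results of these data known. Over all tested genes, 8.38% were lower and 4.65% higher at an unadjusted p below 0.05 by limma. By voom 2241 of 15471 genes were at that level. The Tshr-/- libraries lay wholly below wild type for 1.76% of all tested genes. Genes named from a list are those of smallest p in it. The 13 subunits encoded in mitochondrial DNA had 0 called, 6 higher and 7 lower, and summed to 26439 ± 2709 FPKM in Tshr-/- and 27435 ± 2261 in wild type (SD, n = 5 each). The lowest p among them was that of mt-Nd4l, at 97.1 ± 39.0 and 162 ± 71.1 FPKM (limma adjusted p = 0.399). Several of the 13 varied widely over the 10 libraries: mt-Nd4l from 60.1 to 270 FPKM, mt-Co3 from 52.4 to 281 and mt-Nd3 from 11.3 to 129. The sum rests mostly on the highest genes, such as mt-Co1 at a mean of 8300. Near-identical copies of these 13 genes were not searched for, and the cause of the wide ranges was not tested. Of 38 tested assembly factors outside the symbol rule, 11 were higher and 27 lower, and 3 (7.89%) had an unadjusted p below 0.05, all lower (4 by voom). Cox14, which helps to assemble complex IV, had 88.1, 89.1, 89.96, 88.4 and 94.4 FPKM in Tshr-/- and 117, 101, 114, 99.3 and 97.9 in wild type, groups that did not overlap (log2 difference -0.23, SE 0.06; limma adjusted p = 0.187). Of 17 genes for electron carriers and coenzyme Q synthesis 0 had an unadjusted p below 0.05 (3 by voom).

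Of 14 regulators of mitochondrial biogenesis 4 were higher and 10 lower. At an unadjusted p below 0.05 there were 3 (21.4%), all lower (2 by voom), against 8.38% of all tested genes in that direction. Esrra, the nuclear receptor ERR alpha, known to drive respiratory chain genes, had 28.2, 30.0, 28.1, 26.4 and 29.3 FPKM in Tshr-/- and 39.6, 32.7, 40.2, 30.0 and 38.4 in wild type. All 5 Tshr-/- values were below the wild-type values, the highest of the former and the lowest of the latter both rounding to 30.0, and the log2 values differed by -0.34 (SE 0.08; limma adjusted p = 0.176). Yy1 and Nrf1, 2 further regulators of these promoters, had log2 differences of -0.21 and -0.19 (limma adjusted p = 0.25 and 0.369). Of 17 genes of pyruvate dehydrogenase and the citric acid cycle, 1 higher and 1 lower had an unadjusted p below 0.05 (3 by voom), and Idh3b, a subunit of isocitrate dehydrogenase, was at 58.8 ± 1.92 and 64.5 ± 1.04 FPKM (limma adjusted p = 0.222). Of 77 mitochondrial ribosomal proteins 17 were higher and 60 lower, with 6 of the latter (7.79% of the list) at an unadjusted p below 0.05. Of 15 genes of mitochondrial import 5 were higher and 10 lower, with 1 (6.67%) at that level. Of 98 cytosolic ribosomal proteins, which are no part of mitochondria, 33 were higher and 65 lower, close to the split of the members.

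Promoters of 77 members were found in RefSeq windows (GRCm38.p6) running from 250 bases before to 50 after the start, and were searched on both strands for the letters of 3 motifs of known regulators. GCGCANGCG, from the core recognized by NRF1, was in 22 of 77 members (28.6%), against 7.03% of all 27025 genes with a window and 14.8% of the 10583 tested genes with one. AAGATGGCG, recognized by YY1, was in 9 (11.7%), against 1.64% and 3.4%. CCGGAAGT, recognized by ETS factors such as GABPA, was in 5 (6.49%), against 4.31% and 8.48%. None of the 3 strings contains another. A match is a description of letters and not a site. Cox6a1, the highest member, had 2 NRF1 matches (chr5:115349096-115349135 and chr5:115349051-115349090, minus strand) and Ndufs5 had 1 (chr4:123718260-123718299, minus strand). The windows are shown because the gene for NRF1 is among those measured, with the match in capitals.
Cox6a1 farther from the start: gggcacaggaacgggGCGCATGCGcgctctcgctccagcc
Cox6a1 nearer to the start: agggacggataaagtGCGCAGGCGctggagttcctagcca
Ndufs5: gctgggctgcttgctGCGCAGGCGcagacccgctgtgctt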

How the data were processed

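RNA of the hippocampus was sequenced on 10 libraries. The submitters' processing notes name the aligner HISAT2 2.0.5, the counter featureCounts 1.5.0-p3 and the build mm10. The authors deposited FPKM values per gene, with gene length. The annotation release and the treatment of multi-mapping reads are not given in the sources used here. Per the labels, the library kit was NEBNext Ultra, which does not mark strand, so reads of overlapping genes on opposite strands cannot be told apart.

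Values were tested as log2(FPKM + 0.1) with limma 3.58.1 (trended empirical Bayes, R 4.3.3) for the 15471 genes with a mean of at least 0.5 FPKM, on genotype alone over all 10 libraries, with Benjamini-Hochberg adjustment and a threshold of 0.05. FPKM times length was a whole multiple of 1 step for 100% of values within 0.01 of a read, and these multiples served as reads for voom and for shares. The step was 34.1 in Tshr-/- library 1 with 28332278 reads and 32.6 in wild-type library 1 with 32397612. It thus did not follow the counted reads exactly. The median of all tested genes was -0.01 on FPKM and 0.06 by voom. p-values measure the spread between the 5 biological replicates of each genotype. The test was also run on simulated data with 15307 genes. There it called 18 of 51 genes changed 1.3-fold, 36 of 51 changed 1.5-fold and 39 of 47 changed 2-fold. Of its 150 calls there, 9 were false. In the measured data it called 2 of 15471 genes. Whether the rates from simulated data hold for the measured libraries was not tested.

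Near-identical copies were found with blastn 2.17.0+ (coding transcripts of GENCODE vM21 against the exons of other genes in the table). Alternatives were other pseudocounts, filters and scalings, quality weights, a replicate block and leaving out each library. Genes named are those called, up to 4 of smallest p per functional group, the highest and lowest of each complex, the catalytic subunits, the isoform pairs and up to 3 of smallest p per list of related genes. A gene that this rule names, 1 member, is not reported here. The members and lists were chosen with earlier results of these data known.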

Additional observations from a re-analysis of the deposited data

Results flagged for a closer look

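Each group of 5 libraries was searched for a highest or lowest library whose gap to the next exceeded 0.71 of the range. Of 124 groups 10 stood out, where chance gives about 1 in 20 for independent groups picked beforehand. These groups share libraries, and Ndufa12, Atp5s and the items with copies were included after values were seen. The number that stood out is therefore no test against chance. Of the 10, 4 were low values in wild-type library 4. Ndufb9 had 166 FPKM there against 185 to 191 in the other 4 wild-type libraries, Ndufs5 106 against 120.3 to 125, Uqcrc1 37.9 against 42.4 to 43.1, and Cox7a1 1.51 against 2.26 to 2.56. This is the library in which 84 of 93 members lay below their mean.

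The reads of the copy of Ndufs5 in Tshr-/- library 1 were 36.2 RPM (per 1000000 counted reads) against 1.37 to 2.11 in the other 4 Tshr-/- libraries. Ndufa12 with its copy summed to 70.6 RPM in Tshr-/- library 3 against 99.1 to 109 in the other 4. Cox8b had 4.15 FPKM in Tshr-/- library 4 against 0.284 to 0.849, and Cox7a1 had 4.63 in Tshr-/- library 2 against 1.85 to 2.48. In wild type, Ndufa4l2 had 2.91 FPKM in library 2 against 2.51 to 2.61, and Atp5k, a small membrane subunit of the ATP synthase, had 69.8 in library 5 against 55.7 to 59.6.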

How the results depend on the processing

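Under every alternative run (26 settings in all) 0 of the 93 members were called, with the smallest adjusted p among members between 0.2 and 0.566, and 83 to 87 members had an interval within 1.3-fold, apart from the 6 libraries low in thalamic transcripts, where it was 76. The number of all genes called was 2, and 14 with a pseudocount of 0.01, 4 with no filter on low values, 13 with a mean of at least 1 FPKM, 13 with median-ratio scaling, 4 after quantile normalization, 1 with no variance trend, 13 with robust empirical Bayes, 17 among protein-coding genes alone, 9 by voom, 13 with the reads of copies added, and 0 to 9 when 1 library was left out (0 when it was Tshr-/- library 2 or wild-type library 2, 3 or 4, and 9 when it was Tshr-/- library 5). The cause of these shifts was not tested. With the replicate number as a block 3 genes and 0 members were called. Libraries with the same number did not deviate together (correlations of -0.06, 0.30, 0.08, 0.17 and -0.07 for numbers 1 to 5, with 2 of 5 Tshr-/- libraries correlating best with their own number).

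Medians over members moved by more than 1 SD between libraries of a genotype in these cases. After quantile normalization they were 0.0466 for complex I, 0.10 for complex II, 0.0539 for complex III, 0.0749 for complex V and 0.0554 for all members, where the median of all genes was -0.00287. By voom they were 0.0315 for complex III, 0.0519 for complex V and -0.00619 for the assembly factors, where the median of all genes was 0.06. Leaving out 1 library gave -0.0949 to -0.0162 for the assembly factors.

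Single members whose log2 difference changed sign are given here, and none was called. Beside members near 0 or of wide interval, they included Uqcrq and Ndufb10, among others. These 2 changed sign after quantile normalization, although they ran from -0.115 to -0.0606 and from -0.101 to -0.0554 when 1 library was left out. The median of all tested genes was -0.01 with the settings used and 0.06 by voom, so signs by voom carry a shift shared with other genes. The member median less that of all genes was -0.0137 and -0.0133, in the same order. With array quality weights the log2 difference was -0.0207 for Atp5g2 and -0.0213 for Ndufa12. By voom on rebuilt reads it was 0.0622 for Atp5a1, 0.0519 for Atp5b, 0.0457 for Atp5d, 0.00645 for Atp5g1, 0.0361 for Atp5l, 0.012 for Cox4i1, 0.0442 for Cox7a2, 0.0349 for Cox8a, 0.00352 for Cyc1, 0.00154 for Ndufa6, 0.0483 for Ndufb9, 0.00998 for Ndufs8, 0.00853 for Ndufv1, 0.0663 for Sdhb, 0.0115 for Sdhd, 0.0697 for Uqcrc1 and 0.058 for Uqcrfs1. With a loess correction for gene length it was -0.00114 for Atp5g2, -0.0162 for Cox6b1 and -0.00516 for Ndufa4. With median-ratio scaling it was 0.00465 for Atp5a1, 0.00931 for Sdhb, 0.0123 for Uqcrc1 and 0.000854 for Uqcrfs1. Over the 6 libraries low in thalamic transcripts it was 0.00282 for Atp5a1, -0.11 for Cox6a2 and 0.00935 for Sdhb. After quantile normalization it was 0.0759 for Atp5a1, 0.0939 for Atp5b, 0.0728 for Atp5d, 0.00834 for Atp5g1, 0.00376 for Atp5l, 0.054 for Cox4i1, 0.0792 for Cox7a2, 0.10 for Cox8a, 0.0331 for Cyc1, 0.0368 for Ndufa6, 0.0202 for Ndufb10, 0.0496 for Ndufb9, 0.0149 for Ndufs8, 0.0242 for Ndufv1, 0.0713 for Sdhb, 0.019 for Sdhd, 0.0756 for Uqcrc1, 0.083 for Uqcrfs1 and 0.00436 for Uqcrq. With the reads of copies added it was -0.0117 for Ndufa12. When 1 library was left out the values ran from -0.0434 to 0.0186 for Atp5a1, -0.0582 to 0.0105 for Atp5b, -0.034 to 0.0496 for Atp5g2, -0.0187 to 0.0276 for Atp5g3, -0.0193 to 0.11 for Atp5k, -0.0612 to 0.0207 for Atp5l, -0.0185 to 0.27 for Cox4i2, -0.0792 to 0.71 for Cox6a2, -0.0455 to 0.0581 for Cox6b1, -0.0743 to 0.0426 for Cox7a2, -0.34 to 0.53 for Cox8b, -0.0876 to 0.40 for Ndufa12, -0.0289 to 0.0525 for Ndufa4, -0.00922 to 0.063 for Sdha, -0.0494 to 0.0319 for Sdhb, -0.0354 to 0.0357 for Uqcrc1 and -0.0364 to 0.0311 for Uqcrfs1.

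FPKM is a relative measure, so a change shared by most transcripts would not be seen. With 5 libraries a group, the median interval reaches 0.15 log2 units to either side. Members with near-identical copies depend on how multi-mapping reads were counted, which no source used here states. The labels give no batch. The mean log2 deviation of the hippocampal list was -0.487 to -0.0241 in the Tshr-/- libraries and 0.105 to 0.442 in wild type. Genotype and the level of these markers therefore cannot be told apart over all 10 libraries. The thalamic sums overlapped, at 28.2 to 200 FPKM in Tshr-/- and 18.8 to 92.4 in wild type. If cell numbers differed was not tested. Alternatives with 6 libraries and with copies added were chosen after seeing the data.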

Other observations

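Nnt, the inner membrane transhydrogenase that uses the proton gradient to make NADPH, was at 0.0139 to 0.108 FPKM in all 10 libraries. A deletion in this gene is known from the C57BL/6J substrain. The labels name the strain as C57BL/6 without a substrain.

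Marker lists of other cell types differed in how many of their genes had a higher mean in Tshr-/-. Of the listed genes tested, 3 of 6 for oligodendrocytes, 3 of 6 for astrocytes, 2 of 6 for microglia, 2 of 5 for endothelium and 3 of 7 for neurons in general had a higher mean in Tshr-/-, against 5 of 5 for ependyma, 6 of 6 for meninges and 7 of 8 for choroid plexus. Single libraries weighed on these counts. The choroid plexus sum was 2259 FPKM in Tshr-/- library 4, 6.6 to 59 in the others of that genotype and 5.05 to 90.7 in wild type. The ependyma sum was 22.3 and 24.3 in Tshr-/- libraries 2 and 4, 6.67 to 12.6 in the others and 5.55 to 12.2 in wild type. The meninges sum was 40.3 in Tshr-/- library 4, 11.7 to 18.2 in the others and 7.07 to 17.6 in wild type. The part of these cells in the respiratory chain values was not tested.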
